A study of Mus musculus with 6 samples.

Results

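*Cav1* and *Cav2* are the caveolin genes examined here, 2 of the 4864 genes of the expression table that were analysed. They were taken by symbol from a table of RNA-seq values, and they were selected with the difference in their levels between the groups of these same libraries already known. Their counts and their FPKM values, which are counts scaled by gene length and library total, are therefore given as a description, without a test. Adipose-derived stem cells (ADSCs), adipocyte precursors from the subcutaneous white fat of wild type (WT) male C57BL/6J mice, were differentiated with vehicle (3 libraries) or with NJT-2 (3 libraries), a natural compound that was studied as a ligand of the nuclear receptor PPARγ. Both groups received the same inducing medium of dexamethasone, insulin, isobutylmethylxanthine, indomethacin and triiodothyronine, and the cells were taken as mature adipocytes on day 8 of differentiation. NJT-2 was used at 200 nM in the cell model, and no separate concentration is stated for the sequenced cultures. Neither the labels nor the methods say whether the 3 libraries of a group came from separate animals or cultures, so the p-values given for other genes measure the spread between these libraries, which may be technical in part. The age of the mice is not given in the sources used here.

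Caveolae are small flask-shaped pits of the plasma membrane, rich in cholesterol, and adipocytes are among the cells in which they are most abundant. Caveolin-1, the product of *Cav1*, is the main structural protein of their coat, and caveolin-2, the product of *Cav2*, assembles with it and depends on it for transport to the cell surface. Cavins bind caveolins from the cytosol to complete the coat, EHD proteins and pacsin 2 shape and hold the neck, and in fat cells caveolae are known for their ties to insulin signalling, cholesterol and the uptake of fatty acids.

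Both genes lie on the plus strand of chromosome 6. On the mouse build GRCm38, *Cav2* (ENSMUSG00000000058) spans chr6:17281185-17289115 and *Cav1* (ENSMUSG00000007655) spans chr6:17306335-17341324, so that 17219 bases separate the end of *Cav2* from the start of *Cav1*. The table lists 9 transcripts for *Cav1* and 3 for *Cav2*, and its FPKM values imply lengths of 3444 and 3336 bases. An antisense gene on the minus strand, *Gm15581* (chr6:17206823-17385604 in the annotation GENCODE M21), overlaps both caveolin genes and has no row among the genes analysed here. The library kit keeps the strand, but whether the counting used it is not given in the sources used here, so reads of *Gm15581* in the caveolin counts were not separated.

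The sequences upstream of the start sites are shown because the levels of the genes moved together across the libraries. They are the 250 bases before each start site that RefSeq places in GRCm38.p6, on the plus strand, at chr6:17306085-17306334 for the first start of *Cav1* and at chr6:17280935-17281184 for *Cav2*. Capitals mark letters that match one of the motifs searched on both strands, which were the TATA box (TATAAA), the CCAAT box, the GC box (GGGCGG), the nuclear receptor core site (AGGTCA), a direct repeat of this site with 1 base between the copies, and the E box (CANNTG).
Cav1 upstream of the first start: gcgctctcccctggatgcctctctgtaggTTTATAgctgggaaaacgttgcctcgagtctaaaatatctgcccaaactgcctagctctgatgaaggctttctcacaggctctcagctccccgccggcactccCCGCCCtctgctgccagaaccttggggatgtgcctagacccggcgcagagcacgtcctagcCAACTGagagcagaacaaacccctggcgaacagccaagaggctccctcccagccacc
Cav2 upstream of the start: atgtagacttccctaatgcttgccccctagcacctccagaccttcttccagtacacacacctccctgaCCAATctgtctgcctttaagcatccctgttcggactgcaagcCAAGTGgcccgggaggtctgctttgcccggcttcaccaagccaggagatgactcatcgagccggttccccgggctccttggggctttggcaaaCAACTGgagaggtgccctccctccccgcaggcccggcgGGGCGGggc

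Read from the base before the start site as -1, the *Cav1* sequence holds TATAAA on the minus strand at -221, GGGCGG on the minus strand at -118 and CANNTG, which reads alike on both strands, at -57. The *Cav2* sequence holds CCAAT at -182, CANNTG at -140 and at -47, and GGGCGG at -9. A second start of *Cav1*, with its upstream bases at chr6:17307390-17307639, holds CANNTG at -158 and none of the other motifs. These letters are common. Among 32851 mouse promoter sequences of the same length, 12.4% hold TATAAA, 33.8% CCAAT, 32.7% GGGCGG and 66.2% CANNTG. Neither AGGTCA, in 14% of promoters, nor its spaced repeat, in 0.0335%, is in the caveolin sequences, which says only that these letters are not in these windows. The GC content is 59.6%, 60.8% and 62.0% in the sequences of the first and second *Cav1* start and of *Cav2*, against a median of 52.4% over all promoters (quartiles 45.2% and 61.2%). The number of CpG pairs is 10, 12 and 10 against a median of 6 (quartiles 2 and 16), so that all 3 counts and the GC content of both *Cav1* sequences lie between the quartiles. A match is a description of the sequence and does not show that a factor binds there.

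Over the 4864 genes the libraries held between 16093037 and 28929673 counts, and the 3705 genes whose mean FPKM reached 0.5 were fitted with edgeR's quasi-likelihood model. The 4864 genes, of 55450 in GENCODE M21, took 27.7% to 32.5% of the library totals that the FPKM values imply, and the places in the order, the scaling factors and the shares of genes given here rest on them alone. The groups were uneven inside. NJT-2 replicates 1 and 3 were the closest pair of libraries, with a chi-square of 48.4 per gene, while NJT-2 replicate 2 stood at 1230 and 1071 from them, and vehicle replicate 1 stood at 965 and 1669 from vehicle replicates 2 and 3, which were at 389 from each other. Each caveolin value is therefore given per library and also without these single libraries.

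*Cav1* was high in each NJT-2 library relative to each vehicle library. Its FPKM was 3.61, 19.87 and 22.69 in vehicle replicates 1 to 3 and 300.2, 48.7 and 248.5 in replicates 1 to 3 of NJT-2. The counts behind these values were 723, 6102 and 5580 with vehicle against 73361, 11756 and 59799 with NJT-2. The groups did not overlap, with NJT-2 replicate 2 far below the other NJT-2 libraries and vehicle replicate 1 far below the other vehicle libraries. The mean FPKM was 15.4 ± 10.3 (SD, n = 3) with vehicle and 199 ± 133 (SD, n = 3) with NJT-2, a ratio of 12.9. The nearest libraries across the groups, NJT-2 replicate 2 and vehicle replicate 3, differed 2.15-fold, which is less than the 6.29-fold range inside the vehicle group or the 6.17-fold range inside the NJT-2 group. In NJT-2 replicates 1 and 3 alone, *Cav1* stood at least 10.95-fold above the highest vehicle library. Among the 4864 genes ordered by FPKM, *Cav1* was at place 1988, 836 and 678 in the vehicle libraries and at place 35, 324 and 46 in the NJT-2 libraries, so that it stood near the top of the order in NJT-2 replicates 1 and 3. As a share of the whole library, it was at 12.4, 68.5 and 78.2 CPM (counts scaled to the implied library total) with vehicle, and at 1034, 168 and 856 CPM with NJT-2.

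*Cav2* followed the same order of libraries at a lower level. Its FPKM was 0.32, 1.88 and 3.2 in vehicle replicates 1 to 3 and 35.1, 5.64 and 29.35 in replicates 1 to 3 of NJT-2. The counts were 63, 560 and 763 with vehicle against 8305, 1318 and 6840 with NJT-2. Again the lowest NJT-2 library was replicate 2 and the lowest vehicle library was replicate 1, and the groups did not overlap. The mean was 1.80 ± 1.44 FPKM (SD, n = 3) with vehicle and 23.4 ± 15.6 (SD, n = 3) with NJT-2, a ratio of 13.0. NJT-2 replicate 2 exceeded the highest vehicle library 1.76-fold, against ranges of 10-fold inside the vehicle group and 6.22-fold inside the NJT-2 group. In NJT-2 replicates 1 and 3, *Cav2* was at least 9.17-fold above every vehicle library. By FPKM it was at place 3501, 3013 and 2713 with vehicle and at place 451, 1963 and 549 with NJT-2, so that *Cav2* was below the middle of the order in each vehicle library and above it in each NJT-2 library.

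**Figure D1:**
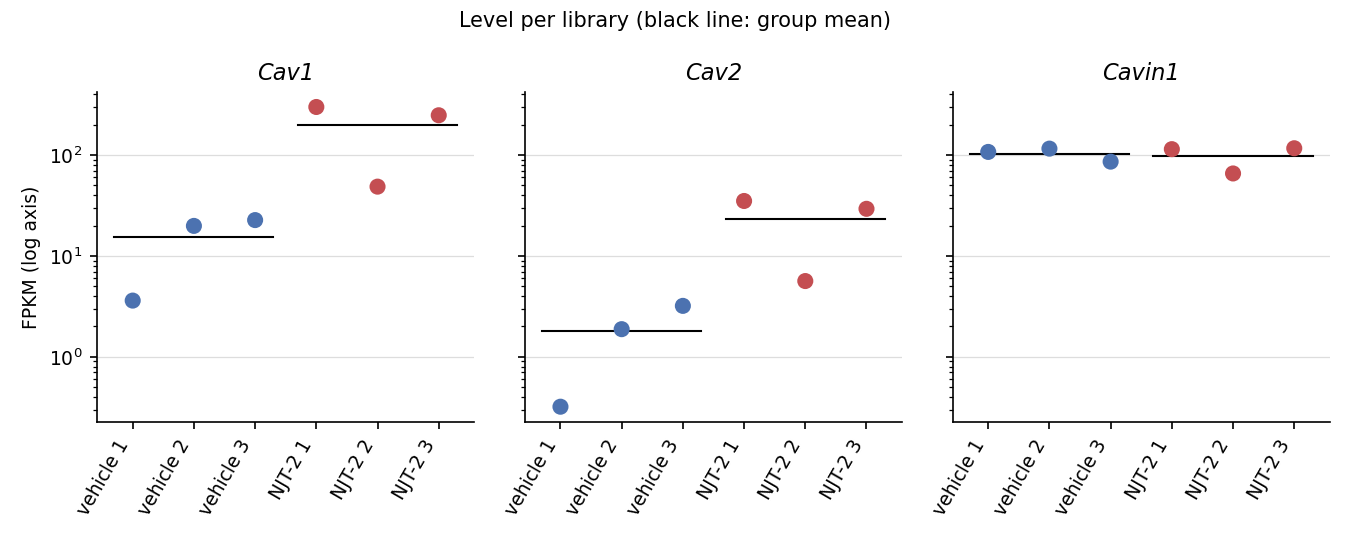
FPKM (log axis) of *Cav1*, *Cav2* and *Cavin1* in each library, with vehicle libraries in blue, NJT-2 libraries in red and the group means as black lines. Every NJT-2 library is above every vehicle library for both caveolins, with NJT-2 replicate 2 lowest of its group at 48.7 and 5.64, while *Cavin1* stays between 65.8 and 117.

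In the fit over all tested genes, the log2 fold change of NJT-2 over vehicle was 3.64 (standard error, SE, 0.79) for *Cav1* and 3.65 (SE 0.86) for *Cav2*, where the median over all 3705 genes was 0.02. With edgeR, 26 genes (0.702% of those tested) passed an adjusted p of 0.05 and an absolute log2 fold change of 1, 21 of them higher with NJT-2 (0.567%), and neither caveolin was among them. With DESeq2, 163 genes were called higher (4.4%), and both caveolins were among them. A complete separation of the groups with NJT-2 on the higher side, as both caveolins have, was found in 533 of the tested genes (14.4%). Since the caveolins were chosen on this contrast, nothing is read from these counts. In bulk RNA, fewer cells that express a gene and less of its RNA per cell cannot be told apart.

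Leaving out single libraries moved the size of the difference. Its direction could not turn in this way, since every NJT-2 library was above every vehicle library. Without vehicle replicate 1, the lowest vehicle library, the log2 fold change of *Cav1* was 3.18 and that of *Cav2* 3.15. Without NJT-2 replicate 2, the lowest of its group, they were 4.09 and 4.11. With both of these libraries left out, a choice made after seeing the data that narrows the spread by construction, they were 3.69 (SE 0.23) and 3.67 (SE 0.31). Over the 16 alternative settings that were run, the log2 fold change ran from 3.18 to 4.09 for *Cav1* and from 2.94 to 4.22 for *Cav2*. That it stayed above 0 follows largely from the separation of the groups.

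**Figure D2:**
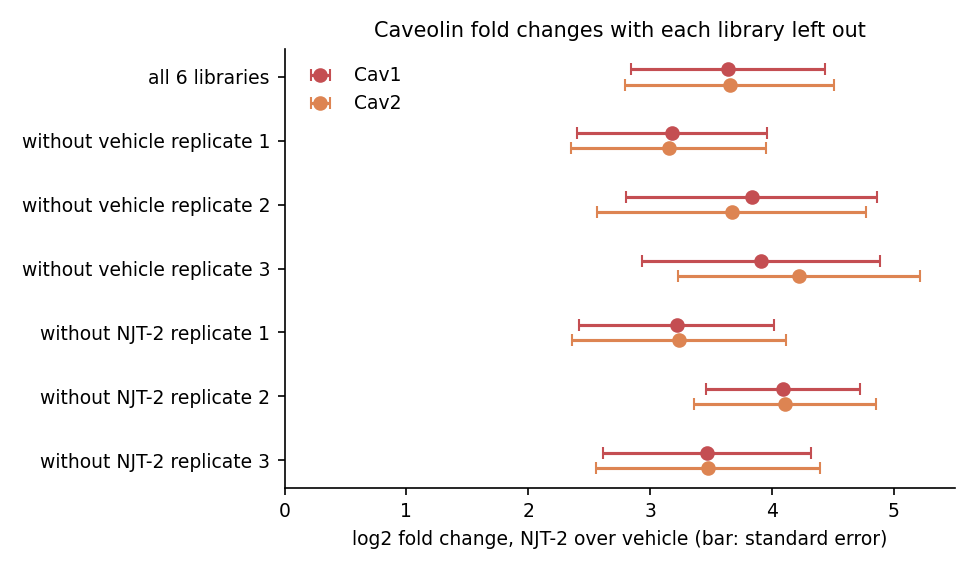
Log2 fold change of *Cav1* and *Cav2*, NJT-2 over vehicle, with all 6 libraries and with each library left out in turn, where bars are standard errors. The *Cav1* values lie between 3.18 and 4.09 and the *Cav2* values between 3.15 and 4.22.

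The proportion of the caveolin transcripts to each other was compared inside each library, where the library total has no influence. Per length, *Cav1* was 11.3, 10.6 and 7.09 times as abundant as *Cav2* in vehicle replicates 1 to 3 and 8.55, 8.64 and 8.47 times in replicates 1 to 3 of NJT-2. The NJT-2 libraries were nearly alike although their *Cav1* levels differed 6.17-fold, and the vehicle libraries lay on both sides of them. The mean ratio was 9.65 ± 2.24 (SD, n = 3) with vehicle and 8.55 ± 0.0845 (SD, n = 3) with NJT-2. On the log2 scale the difference of the means was -0.15, with an SD of 0.36 in the vehicle group. This difference depended on single vehicle libraries, at -0.02 without vehicle replicate 1, -0.07 without vehicle replicate 2 and -0.35 without vehicle replicate 3. In counts, the ratio was 11.5 in vehicle replicate 1 (95% exact binomial interval from 8.86 to 15.1), 10.9 in vehicle replicate 2 (9.99 to 11.9) and 7.31 in vehicle replicate 3 (6.78 to 7.90). With NJT-2 it was 8.83 (8.64 to 9.04), 8.92 (8.43 to 9.45) and 8.74 (8.53 to 8.97). These intervals cover counting error only. The intervals of vehicle replicate 2 and of vehicle replicate 3 do not touch those of any NJT-2 library and lie on opposite sides of them, while the 3 NJT-2 intervals overlap.

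**Figure D3:**
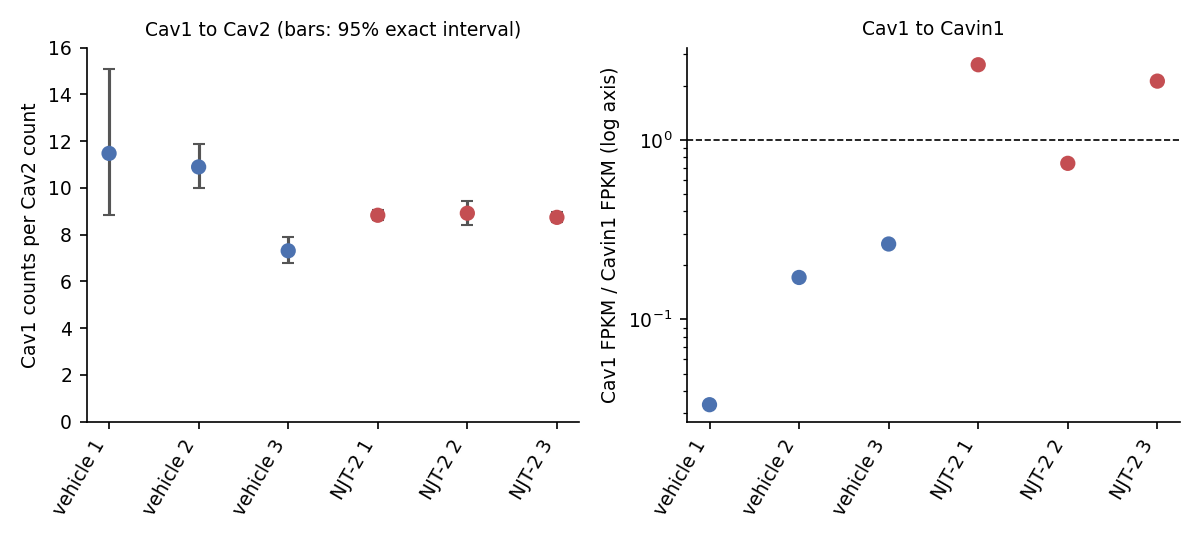
Left, counts of *Cav1* per count of *Cav2* in each library, with 95% exact binomial intervals. Right, FPKM of *Cav1* divided by FPKM of *Cavin1* (log axis, dashed line at equal levels). The *Cav1* to *Cav2* ratio is 8.74 to 8.92 with NJT-2 and 7.31 to 11.5 with vehicle, while the *Cav1* to *Cavin1* ratio runs from 0.0336 to 0.263 with vehicle and from 0.740 to 2.62 with NJT-2.

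None of the other caveola genes analysed separated the groups as the caveolins did. Of 13 further coat and neck genes, 4 were among the analysed genes and passed the filter, and edgeR called none of them, with 0 at an unadjusted p under 0.05 and 0 called by DESeq2. Over all tested genes, edgeR called 26 (0.702%), 658 (17.8%) had an unadjusted p under 0.05, and DESeq2 called 163 higher and 126 lower. With only 4 genes, counts of 0 lie close to these shares. The log2 fold changes of these 4 genes were above 0 in 1 and below 0 in 3, with a median of -0.34. *Cavin1*, whose product is the cavin needed for caveolae to form, had an FPKM of 107.6, 116 and 86.2 with vehicle and of 114.6, 65.8 and 117 with NJT-2. The groups overlapped, and the log2 fold change was -0.30 (SE 0.39, adjusted p = 0.668, edgeR). It was -0.05 without vehicle replicate 1, -0.10 without NJT-2 replicate 2 and -0.53 without vehicle replicate 3, and it turned to 0.19 when vehicle replicate 1 and NJT-2 replicate 2 were both left out. *Cav1* stood at 0.0336, 0.171 and 0.263 of the *Cavin1* level per length in vehicle replicates 1 to 3 and at 2.62, 0.740 and 2.12 in replicates 1 to 3 of NJT-2. *Cav1* was below *Cavin1* in each vehicle library and in NJT-2 replicate 2, and above it in NJT-2 replicates 1 and 3. *Cav2* was below *Cavin1* in all 6 libraries, at a ratio of at most 0.0371 with vehicle and at most 0.306 with NJT-2.

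*Ehd1* and *Ehd3*, which encode membrane-remodelling ATPases of the EHD family, had log2 fold changes of -0.77 (SE 0.45, adjusted p = 0.358, edgeR) and -0.38 (SE 0.54, adjusted p = 0.694). *Ehd1* was at -0.34 without vehicle replicate 1 and at -0.08 with NJT-2 replicate 2 left out as well. *Ehd3* was at -0.84 without vehicle replicate 1, and its direction was not stable, at 0.01 without vehicle replicate 3 and 0.02 with limma on log2(FPKM + 0.1). *Pacsin2*, which encodes a membrane-bending protein of the caveolar neck, had 0.45 (SE 0.40, adjusted p = 0.519), with 0.10 without vehicle replicate 1 and 0.71 without vehicle replicate 3. Its FPKM was 3.1 in vehicle replicate 1 and 10.6 to 13.6 in the other 5 libraries, so that it shared with the caveolins the low value in vehicle replicate 1 and no separation of the groups. *Cav3*, *Cavin2*, *Cavin3*, *Cavin4*, *Ehd2*, *Ehd4*, *Pacsin1*, *Pacsin3* and *Ror1* were not analysed here.

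**Figure D4:**
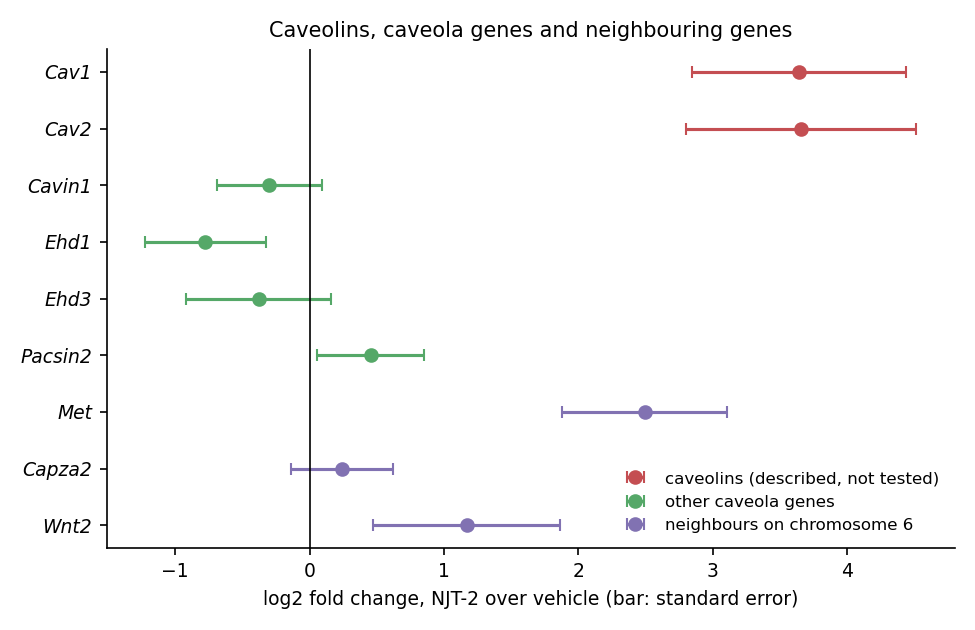
Log2 fold change of NJT-2 over vehicle with its standard error for the caveolins (red, described and not tested), the other caveola genes (green) and the neighbouring genes on chromosome 6 (violet). *Cav1* and *Cav2* are at 3.64 and 3.65, the other caveola genes between -0.77 and 0.45, and the neighbours between 0.24 and 2.49.

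Of 21 genes whose proteins were described at caveolae or in contact with caveolin-1, 12 were tested. With edgeR, 2 rose and none fell, 6 had an unadjusted p under 0.05, and the median log2 change was 0.68, with 10 of the 12 above 0. Over all tested genes, 21 (0.567%) were called higher with edgeR, 658 (17.8%) had an unadjusted p under 0.05 and 1883 (50.8%) were above 0. Both partner genes that rose, the fatty acid transporter gene *Cd36* (log2 fold change 8.08, SE 1.10, adjusted p = 0.0278) and the hormone-sensitive lipase gene *Lipe* (4.25, SE 0.67, adjusted p = 0.0432), are also on the adipocyte marker list. *Cd36* FPKM was 0.13, 0.82 and 2.95 with vehicle and 453.7, 206.4 and 400.0 with NJT-2, the library order of the caveolins. *Lipe* FPKM was 2.88, 2.16 and 2.2 with vehicle, highest in vehicle replicate 1, where *Cav1* and *Cav2* were lowest. With NJT-2, *Lipe* was at 85.6, 17.2 and 65.0, in the order that the caveolins had. The amine oxidase gene *Aoc3* (2.25, SE 0.45, adjusted p = 0.0853) and the insulin-responsive glucose transporter gene *Slc2a4* (6.49, SE 1.35, adjusted p = 0.0933) did not pass in edgeR. The number that passed depended on the libraries in the fit, while the size of the differences moved less. Leaving out 1 library at a time, the log2 fold change ran from 7.53 to 9.36 for *Cd36* and from 3.81 to 4.66 for *Lipe*. The number was 0 without vehicle replicate 1, vehicle replicate 2, NJT-2 replicate 1 or NJT-2 replicate 3, and 1 without vehicle replicate 3, in fits where at most 2 genes of the whole table were called higher. It was 6 with DESeq2, of which 5 were higher. Over all tested genes, DESeq2 called 163 higher (4.4%) and 126 lower.

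Genes of the other endocytic routes were compared with the caveolins as a list of 25 clathrin, adaptor and flotillin genes. Of these, 8 were tested. With edgeR, 1 fell and none rose, where 5 fell and 21 rose over all 3705 tested genes. On the list, 2 had an unadjusted p under 0.05 (17.8% over all tested genes), and the median log2 change was -0.21. The gene of the list that fell was *Epn2*, which encodes the clathrin adaptor epsin 2. It had an FPKM of 22.0, 27.3 and 32.7 with vehicle and of 6.65, 5.88 and 6.62 with NJT-2. The log2 fold change was -2.27 (SE 0.29, adjusted p = 0.0270), and without any 1 of the libraries other than NJT-2 replicate 2 it did not pass, with adjusted p-values from 0.0617 to 0.243 and log2 fold changes from -2.35 to -2.23. Unlike the caveolins, *Epn2* had 3 NJT-2 values close to each other. *Ap2s1*, a subunit of the clathrin adaptor AP-2, had -2.39 (SE 0.87, adjusted p = 0.236), *Snx9*, which encodes a sorting nexin, 0.90 (0.43, 0.303), and *Bin1*, which encodes amphiphysin 2, -1.14 (0.64, 0.346), in the order fold change, SE and adjusted p. Each of these 3 values moved by over 1.5 times with single libraries. Without vehicle replicate 1, *Ap2s1* was at -0.70, *Snx9* at 0.57 and *Bin1* at -0.39, and without NJT-2 replicate 2, *Snx9* was at 0.59 and *Bin1* at -1.84. *Ap2s1* FPKM was 289.9 in vehicle replicate 1, where the caveolins were lowest, and 27.2 to 77.7 in the other 5 libraries.

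Around the caveolin pair, 3 further genes of the table lie within 1 Mb, where GENCODE M21 has 8 protein-coding genes besides the caveolins. No neighbour was called with edgeR (0.702% over all tested genes), 1 had an unadjusted p under 0.05 (17.8%), and DESeq2 called 1, which was higher (4.4%). *Met*, which encodes the hepatocyte growth factor receptor, starts 122475 bases after the end of *Cav1*. Its FPKM was 0.23, 0.77 and 1.12 with vehicle and 6.17, 1.57 and 4.79 with NJT-2, the library order of both caveolins, and the groups did not overlap. The log2 fold change of *Met* was 2.49 (SE 0.61, adjusted p = 0.134 in edgeR and 0.00216 in DESeq2). *Cav1* exceeded *Met* per length 15.7, 25.8 and 20.3 times with vehicle and 48.7, 31.0 and 51.9 times with NJT-2, so that every NJT-2 ratio was above every vehicle ratio. *Capza2*, which encodes an actin capping protein subunit, had a log2 fold change of 0.24 (SE 0.38, adjusted p = 0.723), with the direction turned without vehicle replicate 1, at -0.09, and with NJT-2 replicate 2 left out as well, at -0.07. *Wnt2*, which encodes a secreted Wnt ligand, had 1.17 (SE 0.70, adjusted p = 0.370) and its highest value in NJT-2 replicate 2, where the caveolins were lowest of the NJT-2 group, and it was at 0.45 without that library.

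The profile of each caveolin over the 6 libraries was compared with that of 1455 genes whose mean FPKM over both groups reached 10. Of the genes named below, *Cav2*, *Dlat*, *Aldh6a1* and *Pparg* (mean FPKM 1.8, 8.18, 4.42 and 4.38 with vehicle) reached it only through their NJT-2 libraries. *Cav1*, *Dld* and *Prdx3* (15.4, 17.9 and 38.0 with vehicle) reached it in both groups. The scale was the log2 of counts scaled to TMM-adjusted totals of the analysed genes, which differs from the CPM scale used for the share of the whole library. On it, *Cav1* and *Cav2* had a Pearson correlation of 0.996 with each other. Among the 6 genes most like *Cav1* were *Dld* (0.998), *Dlat* (0.998), *Cav2* (0.996), *Pparg* (0.991) and *Prdx3* (0.987). Among the 6 most like *Cav2* were *Dlat* (0.998), *Cav1* (0.996), *Aldh6a1* (0.995), *Dld* (0.993) and *Pparg* (0.992). *Dld* and *Dlat* encode components of the mitochondrial pyruvate dehydrogenase complex, *Prdx3* a mitochondrial peroxiredoxin and *Aldh6a1* a mitochondrial dehydrogenase of valine breakdown, and *Pparg* encodes the receptor that the compound was studied for. These correlations are over 6 libraries that share 2 groups, library sizes and the libraries that stand apart, and they are a description. In part they repeat the group difference on which the caveolins were chosen. On log2(FPKM + 1), *Dlat* and *Dld* were at place 5 and 6 in likeness to *Cav1*, with *Pparg*, *Cav2* and *Prdx3* at place 7, 9 and 19. In likeness to *Cav2* on that scale, *Cav1* was at place 7, *Dlat* at 10, *Aldh6a1* at 13, *Pparg* at 22 and *Dld* at 25.

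The caveolins spanned a wider range than the genes most like them. *Dld* ran from 8.02, 22.4 and 23.3 FPKM with vehicle to 84.5, 36.1 and 73.8 with NJT-2, at a log2 fold change of 1.76 (SE 0.42, adjusted p = 0.132, edgeR). *Pparg* had an FPKM of 1.06, 5.68 and 6.41 with vehicle and of 37.3, 13.0 and 33.7 with NJT-2, with a log2 fold change of 2.63 (SE 0.61, adjusted p = 0.119, edgeR). The ratio of *Cav1* to *Pparg* per length was 3.41, 3.50 and 3.54 in the vehicle libraries and 3.74 in NJT-2 replicate 2, and 8.06 and 7.37 in NJT-2 replicates 1 and 3. *Cav1* and *Pparg* thus kept nearly 1 proportion over 4 libraries and another in the remaining pair. The log2 fold changes of the other genes named for their likeness were 2.34 for *Dlat*, 1.78 for *Prdx3* and 2.75 for *Aldh6a1*, and none of them passed in edgeR (adjusted p from 0.137 to 0.185).

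**Figure D5:**
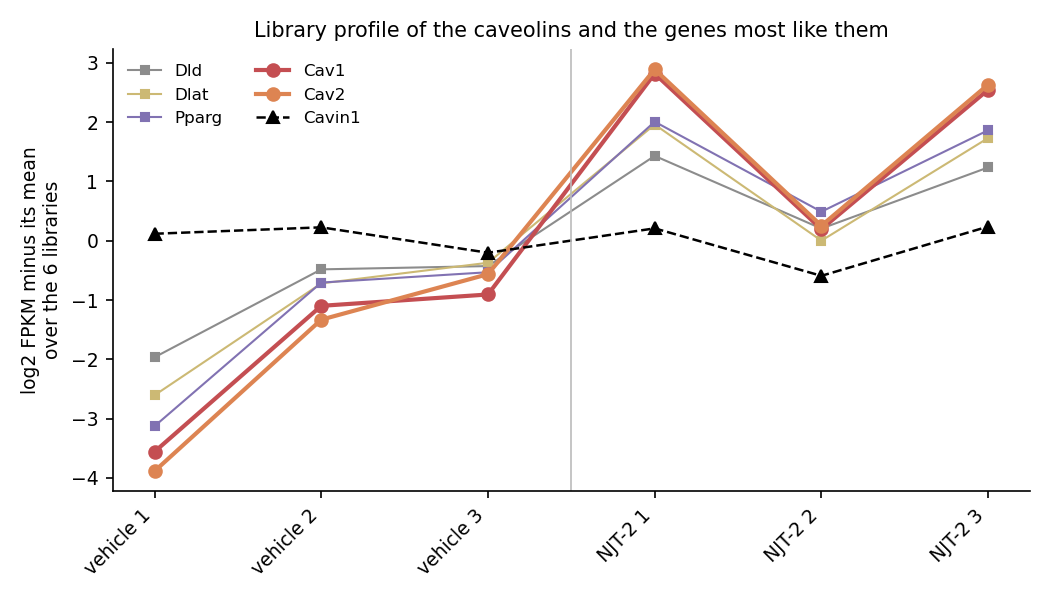
Log2 FPKM of *Cav1*, *Cav2*, *Cavin1* and 3 of the genes most like the caveolins, each minus its own mean over the 6 libraries (lines join the libraries of a gene and stand for no order). *Cav1* and *Cav2* follow *Dld*, *Dlat* and *Pparg* over the libraries with a wider range, low in vehicle replicate 1 and lower in NJT-2 replicate 2 than in NJT-2 replicates 1 and 3, and *Cavin1* does not.

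Marker genes of cell types were set beside the caveolin levels. Adipocyte markers, 10 of 17 in the table, summed to 83.5 to 104.5 FPKM with vehicle and to 490.2 to 1849 with NJT-2, all 10 were above 0 in log2 fold change and 5 rose with edgeR. Over all tested genes, 50.8% were above 0 and 0.567% rose with edgeR. In this sum the NJT-2 libraries had the order of the caveolins, with 490.2 in NJT-2 replicate 2. The vehicle libraries did not, with the highest sum, 104.5, in vehicle replicate 1, where the caveolins were lowest. *Adipoq*, which encodes the fat cell hormone adiponectin, was at 0.38 to 0.50 FPKM in the vehicle libraries, whose labels name the same adipocyte differentiation (and a mesenchymal stem cell as the cell type), and at 22.0 to 64.6 with NJT-2. *Cav1* was at 3.61 to 22.7 FPKM in these vehicle libraries. The adipocyte markers differed among themselves there. *Slc2a4* was at most 0.13 FPKM, while *Lpl* was at 55.14 to 78.79 and *Pnpla2* at 14.11 to 18.95. Endothelial cells are also rich in caveolae, and 5 of 12 endothelial markers were in the table. They summed to 1.15 to 2.69 FPKM with vehicle and 1.67 to 2.97 with NJT-2. The highest values were 1.94 FPKM for *Tek*, in NJT-2 replicate 2, 0.9 for *Pecam1*, 0.7 for *Esam*, 0.07 for *Vwf* and 0.05 for *Ptprb*. *Cav1* ran from 3.61 to 300.2 FPKM over the same libraries.

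Markers of other cells moved as well. Over all 3705 tested genes, 50.8% were above 0 and 17.8% had an unadjusted p under 0.05. Called over all of them were 21 higher and 5 lower with edgeR, and 163 higher and 126 lower with DESeq2. Fibroblast and progenitor markers, 4 of 12 in the table, summed to 226.9 to 998.1 FPKM with vehicle and 442.9 to 486.9 with NJT-2, with the lowest sum in vehicle replicate 1, and most of each sum was from the collagen gene *Col1a1*. All 4 were below 0 in log2 fold change (median -1.60), 3 had an unadjusted p under 0.05, 3 were called by DESeq2, and 1, the progenitor gene *Pi16*, fell with edgeR. *Pi16* was highest in vehicle replicate 1, at 22.3 FPKM, where the caveolins were lowest. Smooth muscle markers, 3 of 8 in the table, summed to 13.3 to 17.8 with vehicle and 4.46 to 12.1 with NJT-2, and none was called (edgeR, 2 at an unadjusted p under 0.05, 1 called by DESeq2). Macrophage markers, 3 of 10 in the table, summed to 9.67 to 12.7 with vehicle and 31.2 to 56.8 with NJT-2, and 1, the surface receptor gene *Adgre1*, rose (log2 fold change 3.23, SE 0.49, adjusted p = 0.0408, edgeR). Mesothelial markers, 2 of 5 in the table, summed to 0.58 to 3.47 in 5 libraries and to 88.6 in NJT-2 replicate 2, from the keratin gene *Krt19*, and this is the NJT-2 library with the lowest *Cav1* and *Cav2*. The part of these cell types in the caveolin levels was not tested.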

How the data were processed

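RNA-seq of 6 libraries was analysed. Per the submitters' processing notes, cutadapt 1.9, HISAT2 2.2.1 and StringTie 2.1.6 were used with GRCm38, and the annotation release is not given in the sources used here. The authors deposited 1 table with raw read counts per gene, not normalized, and with FPKM values, which the authors computed per length and library total and rounded. Its 12 value columns were matched to libraries by name, and 1 incomplete line was left out, so that 4864 genes remained. The counts were fitted with edgeR 4.0.16 in R 4.3.3 (quasi-likelihood test, TMM) over the 3705 genes whose mean FPKM reached 0.5, with Benjamini-Hochberg adjustment over all of them. Genes were called below an adjusted p of 0.05 when the log2 fold change exceeded 1 in either direction, as in the methods of the study, where the authors used DESeq2. No pair of libraries was alike within counting error (chi-square of at least 48.4 per gene).

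The members, the gene lists and the markers were chosen with earlier results of these data known. Named were all caveola genes and all tested neighbours, in the partner and the clathrin list the called genes and the 4 with the smallest p, which include them, and the 6 genes with a mean FPKM of 10 or more that were most like each caveolin (Pearson correlation of log2 CPM on TMM-adjusted totals of the analysed genes, prior count 2). The values of 2 genes are not reported here. Other genes given as markers were named after their values were seen. Alternatives were DESeq2 1.42.0, upper-quartile factors, library totals implied by FPKM, other filters, limma 3.58.1 on log2(FPKM + 1) and log2(FPKM + 0.1), a replicate block, an offset for gene length, and leaving out each library. Leaving out both libraries that stand apart was added after seeing the data. The fit was tested on simulated data.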

Additional observations from a re-analysis of the deposited data

How the results depend on the processing

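The log2 fold change of both caveolins kept its direction in the 16 alternatives, which follows largely from groups that do not overlap. *Cav1* passed the limits of a call in 4 of them (DESeq2, replicate block, without NJT-2 replicate 2, and without both libraries that stand apart) and *Cav2* in 3 (the same but for NJT-2 replicate 2 alone), from which nothing is read. The group difference in their log2 ratio ran from -0.35 to -0.02 leaving out 1 library. The numbers of called genes moved more. DESeq2 called 6 partner genes, 2 clathrin and flotillin genes, 1 neighbour, and 163 genes higher and 126 lower over the table. With a replicate block, 4 partner genes, 43 higher and 14 lower were called. Same-numbered libraries correlated at 0.18, 0.03 and -0.21 in their deviations from the group means, and the other pairs at -0.21 to 0.22. Such deviations cancel within a group and are shaped by the libraries that stand apart. The correlations therefore cannot decide whether the numbers pair the samples. With the length offset 1 partner gene was called. The 5 genes called lower became 9 with upper-quartile factors, 9 with no filter, 8 at a mean FPKM of at least 1, and 10 with limma at either pseudocount. Without vehicle replicate 1 and NJT-2 replicate 2, which narrows the spread by construction, 7 partner genes, 2 clathrin and flotillin genes, 1 neighbour, 255 higher and 227 lower were called. Leaving out 1 library at a time, the calls ran from 0 to 3 for partner genes, 0 to 1 for clathrin and flotillin genes, 0 to 56 higher and 0 to 19 lower, with the upper ends without NJT-2 replicate 2. Direction turned for *Cavin1* (0.19 with both libraries left out), *Ehd3* (0.020 with limma on log2(FPKM + 0.1), and -0.84 to 0.010 leaving out 1 library) and *Capza2* (-0.067 with both left out, and -0.093 to 0.45 leaving out 1), and the cause was not tested. *Cd36*, *Lipe* and *Epn2* lost their calls without single libraries, with adjusted p-values (edgeR) up to 0.243, 0.300 and 0.243, while their log2 fold changes stayed at 7.53 to 9.36, 3.81 to 4.66 and -2.35 to -2.23. Over 21 other named genes and 16 alternatives, 292 of 336 values kept direction and side of the threshold. Each group has 3 libraries, of which 1 stands apart. What greater depth would change was not tested. Only 4 of 13 further caveola genes could be examined.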

Other observations

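A wider set than the coat and neck list was described after seeing the data, the genes that the deposited annotation places in the Gene Ontology term caveola. It holds 29 of the analysed genes, both caveolins among them, and 23 of the other 27 were tested. NJT-2 was on the higher side for 15 and on the lower side for 8, at a median log2 fold change of 0.27 against 0.02 over all tested genes, 10 had an unadjusted p under 0.05 (over all tested genes, 50.8% were higher and 17.8% had such a p), and the 2 that rose with edgeR (0.567% over all tested genes) were *Cd36* and *Lipe*. *Ptgis*, which encodes prostacyclin synthase, had a log2 value of -2.11 for NJT-2 over vehicle (SE, the standard error, 0.53, adjusted p = 0.134, edgeR), with no overlap between the groups. The heme oxygenase gene *Hmox1* had 2.01 (SE 0.68, adjusted p = 0.218, edgeR), and its highest count, 117870, was in NJT-2 replicate 2, where the caveolins were lowest of the NJT-2 group, against 4790 to 32374 in the other 5 libraries.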
